A study of Felis catus with 12 samples.

Results

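Left ventricular RNA from 5 older cats was compared with that from 4 younger cats. The 9 cats were those of the 12 libraries whose number is among the sequenced cats named by the study and has an age in its cohort list. The older cats were cats 10, 15, 23, 30 and 37, aged 8, 14, 13, 18 and 10 years, and the younger cats were cats 11, 31, 36 and 38, aged 4, 3, 2 and 5 years. The libraries labelled as cats 22, 29 and 35 entered no comparison. Cat 35 has no age in the cohort list, and numbers 22 and 29 have one but are not among the sequenced cats that the study names, which holds 2 other numbers in their place, so whose hearts these 2 libraries come from is uncertain. All were client-owned domestic cats (Felis catus) of mixed breeds whose hearts were collected after death, so neither group is a set of healthy hearts. Of the older cats, cats 15, 30 and 37 had congestive heart failure (HF) and cats 10 and 23 had arterial thromboembolism (ATE), in which a clot blocks an artery. Of the younger cats, cats 11 and 31 had congestive HF, cat 38 had ATE and cat 36 had no known cardiac death. Older cats 10, 15 and 37 and younger cats 11 and 38 were male, and the other cats were female. No cat was sampled at more than 1 age.

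The heart of an adult mammal renews few of its muscle cells, so its cells keep their proteins and mitochondria in order over a lifetime by translation, folding and degradation. It draws most of its energy from fatty acids burned in mitochondria. Ageing of tissues is commonly described in terms of falling protein quality control, altered mitochondrial metabolism, cell senescence, changes in the matrix, and low-grade immune and interferon activity, and gene lists for each of these were examined here.

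There was 1 library per cat, made for direct RNA sequencing, in which a nanopore reads RNA molecules without copying them to cDNA. The 3 flow cells each held both age groups. Flow cell A held older cats 23 and 30 with younger cats 11 and 31, flow cell B held older cats 10 and 15 with younger cat 36, and flow cell C held older cat 37 with younger cat 38. The older cats had 789257 to 1215345 reads on genes and the younger cats 1590898 to 2263110, and the groups did not overlap. The difference in mean log2 reads was -0.87 (two-sided exact permutation test over 126 splits, p = 0.00794, the smallest that this number of splits can give). With splits made only within flow cells it was -0.86 (exact p = 0.0278, the smallest for 36 splits). The counting error of a gene was therefore smaller in the younger cats, and counts from libraries thinned to equal reads are given where the results turn on it.

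**Figure D1:**
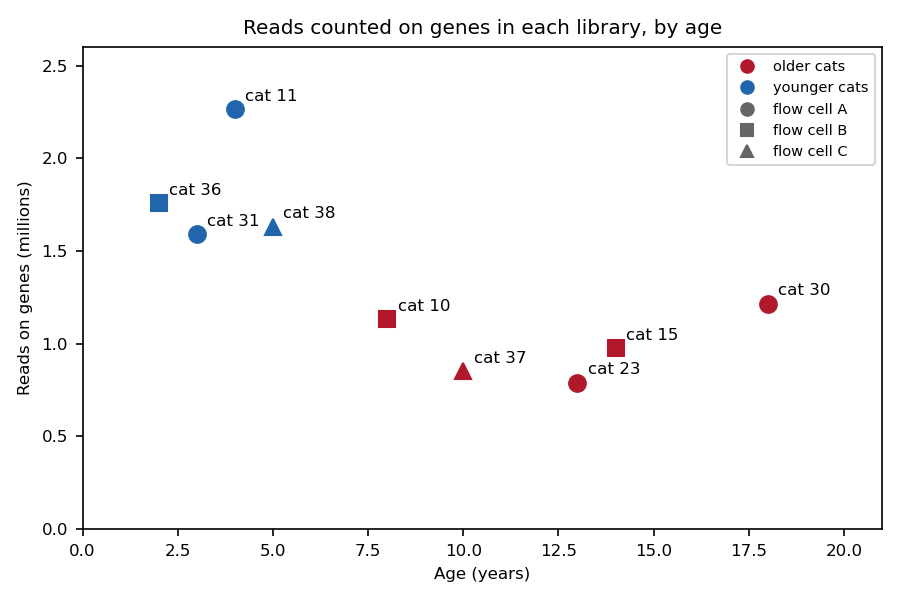
Reads counted on genes in each library (vertical axis) against the age of the cat (years, horizontal axis). Colour gives the age group and the marker gives the flow cell. The 4 younger cats all lie above the 5 older cats, and the gap is present on every flow cell.

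Markers of heart muscle were abundant. All 8 cardiomyocyte markers had enough reads for a test and took 8.09% to 13.7% of the reads in older cats and 9.39% to 13.4% in younger cats. Their median log2 difference was 0.10. The myosin light chain gene MYL2 had a mean value of 98414 ± 25717 (SD, n = 5) in older and 124412 ± 39046 (SD, n = 4) in younger cats, and the troponin gene TNNT2 had 5465 ± 1870.2 (SD, n = 5) and 4792 ± 1904 (SD, n = 4). Genes of the mitochondrial genome were listed at 0 in every library, so the respiratory chain is described below through its nuclear genes alone.

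No gene passed the test between older and younger cats. Each deposited value is the number of reads on a gene over the size factor of its library, and the difference given is that of log2(value + 1), older minus younger, from limma with flow cell in the model, which understates the change of genes with few reads. Of 8439 genes that reached 10 reads in 3 or more libraries, 0 (0%) had a Benjamini-Hochberg adjusted p under 0.05, and the smallest was 0.303. Without flow cell 0 genes passed as well, and the smallest was 0.782. An unadjusted p under 0.05 was reached by 797 genes (9.44% of those tested), of which 343 were higher (4.06%) and 454 lower (5.38%) in older cats. Without flow cell it was reached by 519 (6.15%). The values of the groups did not overlap for 149 genes (1.77%), 67 of them higher (0.794%) and 82 lower (0.972%) in older cats. On every one of the 3 flow cells at once, all older cats were above all younger cats for 307 genes (3.64%) and below them for 419 (4.97%). The median difference over all genes was -0.024, and the median standard error (SE) of a gene was 0.34. None of the differences below therefore passed. The limma adjusted p was 0.303 for IFI6 and between 0.451 and 0.99 for the other genes that the naming rule gives, and the values of each cat are printed so that a difference can be read against its spread.

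Tests of single genes do not show how a group of genes lay as a whole, so each list is described by the number of its members on either side and by its median, beside 4024 higher (47.7%) and 4415 lower (52.3%) over all genes. Counts of members at an unadjusted p under 0.05 are to be read beside 4.06% higher and 5.38% lower over all genes. The lists carry no test of their own. The largest medians were those of the interferon response on the higher side and of macrophage markers on the lower side. Genes of fatty acid oxidation lay mostly higher, and genes of endoplasmic reticulum (ER) folding, nuclear transport and ribosomes mostly lower.

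**Figure D2:**
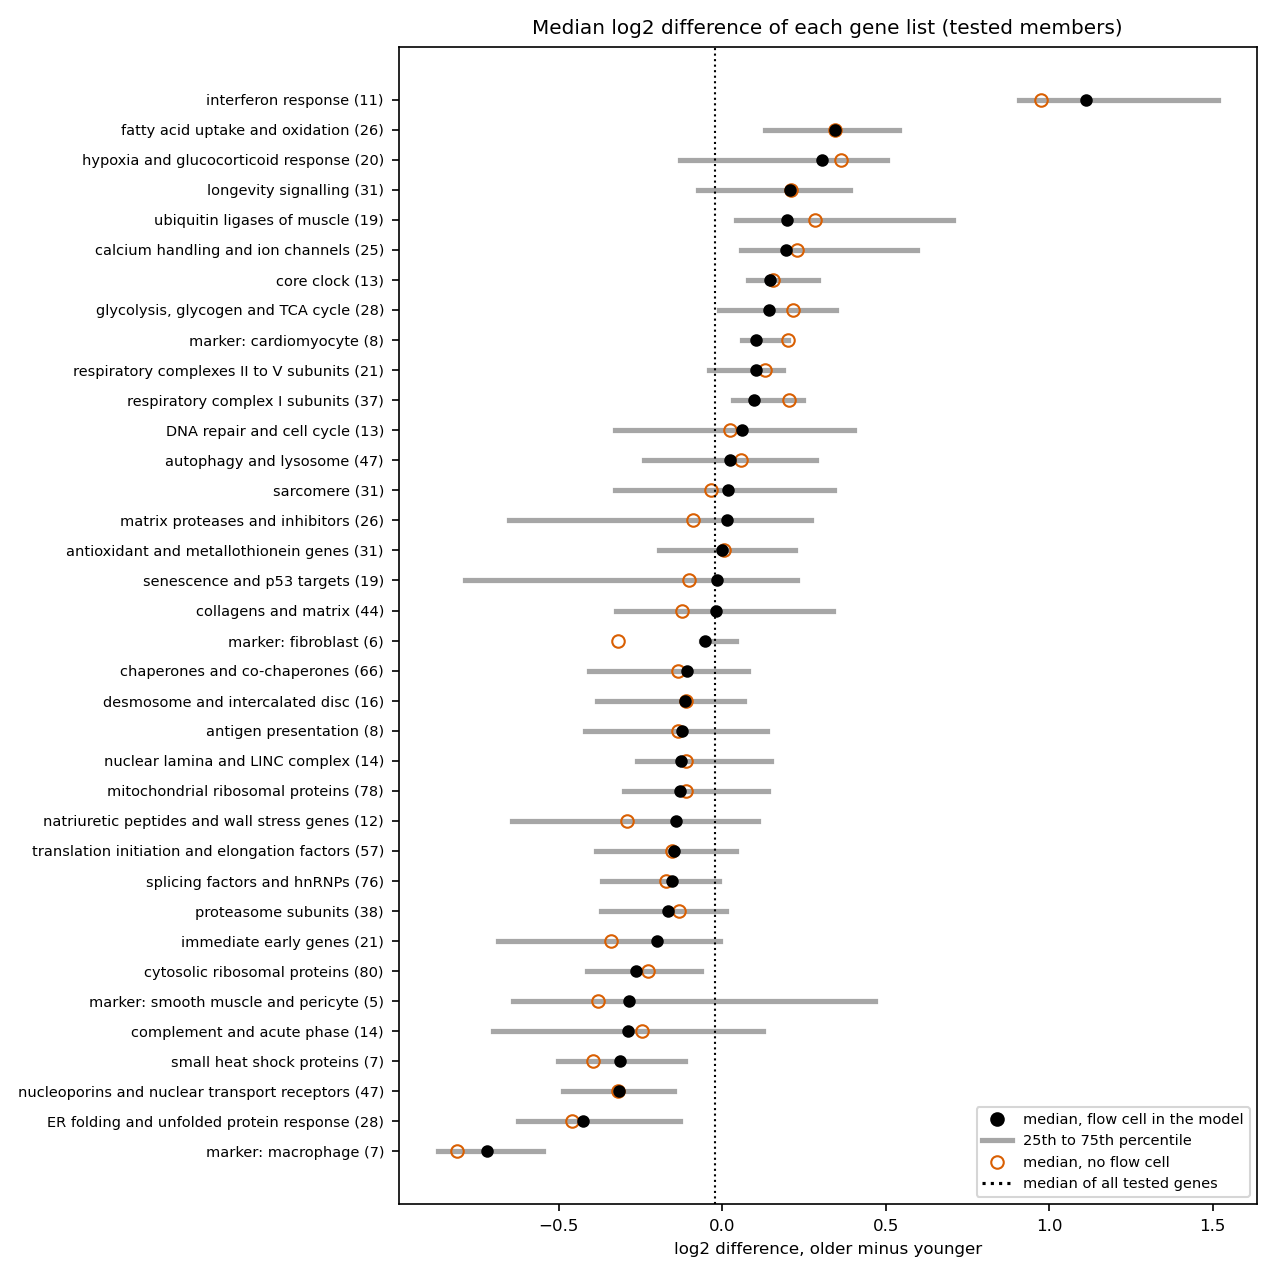
Median log2 difference (older minus younger, horizontal axis) of each gene list with at least 5 tested members, the number of which is in brackets. Black points are medians with flow cell in the model, grey bars run from the 25th to the 75th percentile of the members, open points are medians without flow cell, and the dotted line is the median of all tested genes. The interferon list lies at 1.11 and the macrophage markers at -0.72, and every other list plotted lies within 0.5 of zero.

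Interferon response genes lay higher in the older cats. These genes are switched on when interferons bind their receptors on a cell, and they hinder the growth of viruses. Of 26 members in the table, 11 could be tested, and 11 of them had a positive difference, 7 at an unadjusted p under 0.05, with a median of 1.11. Of the other 15, which had too few reads, 12 had a higher mean in older cats, 2 had a higher mean in younger cats and 1 had no read.

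IFI6, an interferon-induced protein of intracellular membranes, had the smallest p of all genes. Its values in older cats 10, 15, 23, 30 and 37 were 1482, 1415, 359, 819 and 1939.9, and in younger cats 11, 31, 36 and 38 they were 127, 138, 563 and 867. The groups overlapped, since cat 38 was above older cats 23 and 30 and cat 36 was above older cat 23. On each flow cell, though, every older cat was above every younger cat. The difference was 1.62 (SE 0.26, limma adjusted p = 0.303), with 2.03 within flow cell A, 1.36 within B and 1.16 within C. On flow cells B and C alone it was 1.28. DESeq2 on whole reads called the gene (1.69, adjusted p = 2.67e-05), and so did limma among the cats with congestive HF (3.30, adjusted p = 0.00828). That last fit had no flow cell in the model, and both of its younger cats were on flow cell A, so it largely mixes age with flow cell.

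ISG15, a ubiquitin-like protein that is attached to other proteins after interferon, was uneven among the older cats. It had 239, 6.81, 24.2, 32.8 and 245 in older cats 10, 15, 23, 30 and 37 and 8.69, 4.79, 8.01 and 33.1 in younger cats 11, 31, 36 and 38. Cats 10 and 37 stood far above the rest, while older cat 15 was lower than younger cats 11, 36 and 38. Its difference was 2.26 (SE 0.73). DDX58, which encodes the viral RNA sensor RIG-I, had 21.4, 25.9, 26.9, 16.8 and 64.4 in older and 13, 3.19, 8.01 and 29.4 in younger cats. Its difference was 1.41 (SE 0.38), and cat 37 was again the highest.

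IFI6 had more reads than the other 25 members together in 6 of the 9 cats, the exceptions being older cat 23 and younger cats 11 and 31. The values of the other 25 members summed to 627, 215, 416, 371 and 877 in older cats 10, 15, 23, 30 and 37 and to 236, 171, 115 and 389.8 in younger cats 11, 31, 36 and 38. Cat 38 was above older cats 15 and 30 in this sum, and cat 15 was below cat 11. The list median was 1.38 when all libraries were thinned to 789257 reads, 1.30 on flow cells B and C alone and 0.98 among the cats with congestive HF. Antigen presentation genes, many of which also respond to interferon, had no common direction: 4 of 8 were higher and 4 lower, with a median of -0.12. At an unadjusted p under 0.05 there was 1 higher gene, B2M, with 0.74 (SE 0.32). Its groups overlapped, but on each flow cell every older cat was above every younger cat. The 1 lower gene was PDIA3, with -0.47 (SE 0.21), and its groups did not overlap.

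**Figure D3:**
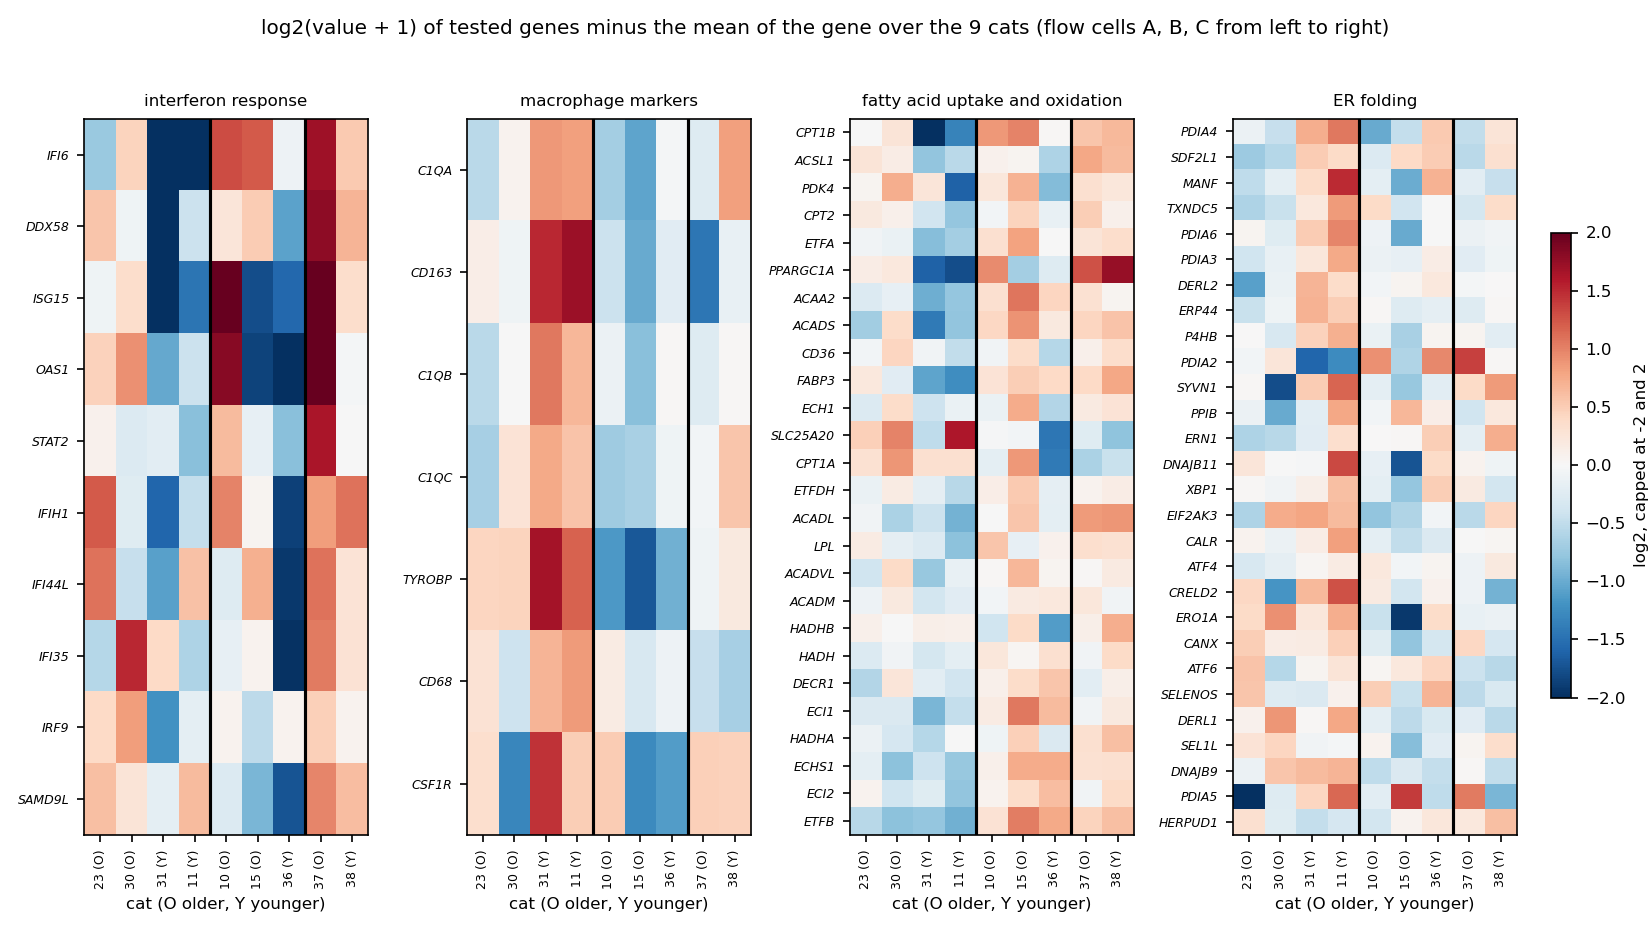
log2(value + 1) of the tested members of 4 lists, except 1 interferon gene that is not drawn, minus the mean of the gene over the 9 cats, in each cat (columns, grouped by flow cell A, B and C from left to right, O older and Y younger). Red is above and blue below the mean of the gene, and colours are capped at -2 and 2. The interferon genes are darkest blue in younger cats 11, 31 and 36 and reddest in older cat 37, and the macrophage markers are reddest in younger cats 11 and 31.

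Macrophage markers lay lower in the older cats. All 7 had a negative difference, 5 of them at an unadjusted p under 0.05, with a median of -0.72. In whole tissue, fewer cells of a type and less RNA per cell cannot be told apart. The 7 markers took 0.0108% to 0.0267% of the reads in older and 0.0154% to 0.0493% in younger cats, and these ranges overlapped.

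C1QA, C1QB and C1QC encode the chains of C1q, which starts the classical complement pathway and is made by tissue macrophages. C1QA had 33.8, 25.9, 37.6, 58.1 and 45.8 in older cats 10, 15, 23, 30 and 37 and 98, 101, 53.4 and 97.8 in younger cats 11, 31, 36 and 38, with a difference of -1.001 (SE 0.24). Cat 36 was the only younger cat within the range of the older cats, and it was just below cat 30. C1QB had 74.4, 44.9, 55.1, 80 and 67.2 in older and 129, 168, 81.9 and 81.6 in younger cats and did not overlap between the groups, although cats 36 and 38 were less than 2 above the highest older cat. The haemoglobin scavenger receptor CD163 had 27.1, 17.7, 40.3, 34.5 and 12.9 in older and 122, 107, 31.2 and 33.1 in younger cats, with a difference of -1.18 (SE 0.28). For CD163, cats 11 and 31 were far above all others, and younger cats 36 and 38 lay among the older cats.

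The macrophage median was -1.08 within flow cell A, -0.49 within B and -0.28 within C. On flow cells B and C alone it was -0.40. CD68 and the growth factor receptor CSF1R, which are shared by most macrophages, had differences of -0.33 (SE 0.31) and -0.44 (SE 0.52). Both were lower in the older cats only within flow cell A. Within flow cells A, B and C, CD68 had -0.83, 0.029 and 0.21, and CSF1R had -1.46, 0.74 and 0.021. Of 7 lymphocyte markers, only JCHAIN, the joining chain of secreted antibodies, had enough reads for a test, with values of 13.5, 5.45, 6.72, 10.1 and 11.4 in older and 7.72, 16, 7.12 and 28.7 in younger cats and a difference of -0.39 (SE 0.44). CD3D and MS4A1 had no read in any library, and CD79A had 9 reads in cat 38 and none elsewhere.

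TGFBI, a matrix protein induced by TGF-beta, had 11.3, 20.4, 21.5, 46.3 and 38.6 in older and 116, 76.6, 45.4 and 70.6 in younger cats, with a difference of -1.38 (SE 0.31), and only cat 36 was below the highest older cat. PLAUR, the receptor of urokinase, had 7.89, 5.45, 2.69, 5.89 and 1.43 in older and 57.4, 31.1, 20.5 and 9.56 in younger cats and did not overlap, with a difference of -2.38 (SE 0.45). DESeq2 called it (adjusted p = 0.0224). These older values stand for 1 to 7 reads, so the size of the difference is loose. PLAUR reached 10 reads only in younger libraries, so it entered the test through the group where it was high. Its lack of overlap and its call are not independent of that filter. CCL21, a chemokine of lymphatic vessels that draws T cells and dendritic cells, had 14.7, 23.1, 8.06, 7.58 and 4.29 in older and 21.2, 39.9, 34.7 and 70.6 in younger cats, with a difference of -1.96 (SE 0.44), and cat 11 was the only younger cat below an older one.

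In the list of natriuretic peptides and wall stress genes, 3 of 12 members were lower at an unadjusted p under 0.05, and the list median was -0.14. They were TIMP1, an inhibitor of matrix proteases, LGALS3, the lectin galectin-3, and TNC, the matrix protein tenascin C. TIMP1 had 108, 169, 211, 179 and 123 in older cats 10, 15, 23, 30 and 37 and 806, 731, 170.1 and 121 in younger cats 11, 31, 36 and 38. LGALS3 had 367, 257, 339.8, 447 and 270.4 in older and 1004, 2495, 523 and 223 in younger cats. For both genes the younger cats with congestive HF, cats 11 and 31, were the 2 highest of all, and cat 38 was within or below the range of the older cats. The differences were -1.01 (SE 0.33) for TIMP1 and -1.10 (SE 0.37) for LGALS3, and on flow cells B and C alone they were -0.18 and -0.32. TNC ranged from 0 to 99.4 in older cats and from 0.735 to 709 in younger cats, with a difference of -1.65 (SE 0.65).

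Structural matrix genes as a whole showed no common direction. Of 44 collagen and matrix genes, 20 were higher and 24 lower, 2 and 4 at an unadjusted p under 0.05, with a median of -0.019. Fibroblast markers COL1A2 and COL3A1 had differences of -0.045 (SE 0.39) and -0.061 (SE 0.33), and the 6 fibroblast markers took 0.0208% to 0.301% of the reads in older and 0.0432% to 0.139% in younger cats. Of 26 matrix proteases and inhibitors, 14 were higher and 12 lower, with a median of 0.015.

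Genes of fatty acid use were mostly higher in the older cats. Of 26 tested members, 22 had a positive difference and 5 reached an unadjusted p under 0.05, none on the lower side, and the median was 0.35. CPT1B, the muscle enzyme that commits fatty acids to entry into mitochondria, had 285, 310.4, 154, 187 and 229 in older cats 10, 15, 23, 30 and 37 and 61.3, 38.3, 158 and 245 in younger cats 11, 31, 36 and 38. Its difference was 1.08 (SE 0.30). Cats 11 and 31 were the 2 lowest, and cats 36 and 38 lay within the range of the older cats. ACSL1, which activates fatty acids for use, had 324, 316, 367, 338 and 522 in older and 209, 176, 199 and 472 in younger cats, with a difference of 0.64 (SE 0.20). Here cats 11, 31 and 36 were below every older cat and cat 38 was the second highest. PDK4, which holds back glucose oxidation when fatty acids are in supply, had 1266, 1751, 1124, 1786 and 1353 in older and 354, 1287, 593 and 1261 in younger cats, with a difference of 0.92 (SE 0.35).

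The list median was 0.23 on flow cells B and C alone, -0.12 within flow cell C, and 0.76 among the cats with congestive HF. The fit that gave 0.76 had no flow cell in the model, and both of its younger cats, 11 and 31, were on flow cell A. As a share of all reads the list took 1.44% to 1.83% in older cats and 0.908% to 1.92% in younger cats, cat 38 being the highest of the 9 and cats 11 and 31 the lowest.

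A pair of mitochondrial carriers stood among the 10 higher genes with the smallest p. SLC25A34 had 92.4, 93.9, 67.2, 68.2 and 93 in older and 12.1, 20.7, 32.9 and 85.3 in younger cats, with a difference of 1.42 (SE 0.32). SLC25A30 had 339, 317, 455, 322 and 526 in older and 101, 123, 219 and 361 in younger cats, with a difference of 1.12 (SE 0.26). In both, cats 11, 31 and 36 were below every older cat, and cat 38 fell within their range.

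Nuclear genes of respiratory complex I, which passes electrons from NADH into the chain, lay slightly higher. Of 37, 30 had a positive difference, 5 at an unadjusted p under 0.05, and the median was 0.10. NDUFA1 had 94.7, 101, 61.8, 92.6 and 116 in older and 37.2, 45.5, 80.1 and 60.3 in younger cats, with a difference of 0.70 (SE 0.24), and cats 11 and 31 were again the lowest. Of 21 subunits of complexes II to V, 13 were higher and 0 reached an unadjusted p under 0.05. The median of complex I was 0.35 within flow cell A and -0.019 within B. For glycolysis, glycogen and the TCA cycle, 21 of 28 were higher, with a median of 0.14, and on flow cells B and C alone this median was -0.061.

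Genes that make, fold and move proteins were mostly lower in the older cats. These lists follow terms that the study chose for age in these same libraries, so their direction is not independent evidence. Of 80 cytosolic ribosomal protein genes, 65 were lower and 11 reached an unadjusted p under 0.05, with a median of -0.26. Among them, RPS9 of the small subunit had a difference of -0.57 (SE 0.20). The ribosomal median was -0.61 within flow cell A, -0.32 within B and 0.51 within C, where the sign was turned, and it was 0.047 on flow cells B and C alone. As a share of reads these genes took 5.04% to 6.06% in older and 4.47% to 7.25% in younger cats, and cat 38 had the lowest share of all.

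Of 57 translation initiation and elongation factors, 38 were lower, 6 at an unadjusted p under 0.05, with a median of -0.15. EIF5A, which helps ribosomes through difficult stretches of protein, had 163, 125, 258, 274 and 207 in older and 502, 458, 229 and 257 in younger cats, with a difference of -0.67 (SE 0.20). Cats 11 and 31 were the highest, and cats 36 and 38 were within the range of the older cats.

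ER folding had the lowest median of the protein lists. Of 28 members, 23 were lower, 6 at an unadjusted p under 0.05 and none of the higher ones, with a median of -0.43. PDIA4, a disulphide isomerase that helps secreted proteins to fold, had 14.7, 21.8, 28.2, 21.9 and 21.5 in older cats 10, 15, 23, 30 and 37 and 64.7, 51, 44.5 and 36.8 in younger cats 11, 31, 36 and 38. The groups did not overlap, and the difference was -1.11 (SE 0.27). SDF2L1, part of an ER chaperone complex, had 25.9, 42.2, 18.8, 21 and 21.5 in older and 41.5, 45.5, 45.4 and 39.7 in younger cats, with a difference of -0.84 (SE 0.27), and cat 15 was the only older cat within the younger range. MANF, a secreted protein of ER stress, had a difference of -0.93 (SE 0.34). The list median was -0.22 on flow cells B and C alone and -0.05 within flow cell C.

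Nuclear transport genes carry proteins and RNA through the nuclear pore. Of 47, 38 were lower, 6 at an unadjusted p under 0.05, with a median of -0.31. The values of 3 did not overlap between the groups, all lower in older cats, against 0.972% of all genes in that direction. RANBP1, which binds the transport GTPase Ran, had 44, 53.1, 43, 53 and 32.9 in older and 143, 83.7, 111 and 64 in younger cats. Every younger cat was above every older cat, and the difference was -1.13 (SE 0.24, limma adjusted p = 0.451), with -1.18, -1.19 and -0.94 within flow cells A, B and C. SEC13, a scaffold of the pore and of transport vesicles, had 18, 24.5, 20.1, 21.9 and 31.5 in older and 47.8, 43.9, 35.6 and 31.6 in younger cats, with a difference of -0.73 (SE 0.28), and older cat 37 lay just under younger cat 38. The importin IPO5 had a difference of -0.56 (SE 0.19) and on flow cells B and C alone of -0.73.

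Of 38 proteasome subunits, 28 were lower and 2 reached an unadjusted p under 0.05, with a median of -0.17. For 66 chaperones and co-chaperones the count was 41 lower with a median of -0.11, and for 76 splicing factors and hnRNPs it was 57 lower with a median of -0.15. The share lower at an unadjusted p under 0.05 was 5.26%, 6.06% and 5.26% in these 3 lists. These shares were near the 5.38% of all genes. Of 7 small heat shock proteins 6 were lower, with a median of -0.31 that was 0.50 within flow cell C. HSPB1, the most studied of them, had 2721, 1445, 4064, 3789.6 and 3721 in older and 6927, 9729, 3609.6 and 2991 in younger cats, with a difference of -0.68 (SE 0.28), and its difference on flow cells B and C alone was -0.36. Mitochondrial ribosomal proteins were split, with 28 higher and 50 lower of 78 and a median of -0.13.

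Ubiquitin ligases of muscle, which mark proteins for the proteasome, included 3 higher genes and 1 lower gene at an unadjusted p under 0.05 of 19 tested, and the median was 0.20. FBXO32, also called atrogin-1, had 192, 347, 180.0, 253 and 219 in older and 39.6, 119.6, 160.3 and 149 in younger cats and did not overlap, with a difference of 1.08 (SE 0.34). TRIM63, or MuRF1, had 264, 370.4, 235, 235 and 205 in older and 34.8, 77.4, 228 and 364 in younger cats, with a difference of 0.94 (SE 0.42). FBXO40 had 83.4, 93.9, 77.9, 71.5 and 88.7 in older and 8.2, 6.38, 52.5 and 126 in younger cats, with a difference of 1.59 (SE 0.50). For TRIM63 and FBXO40, cats 11 and 31 were far below all others, and the differences on flow cells B and C alone were -0.10 and 0.21, against 0.63 for FBXO32. TRIM55, or MuRF2, had a difference of -0.73 (SE 0.26).

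Sarcomere genes, which build the contractile unit, were split, with 17 higher and 14 lower of 31 and a median of 0.017. MYH6, the fast atrial myosin heavy chain that is also made in ventricles, had 355, 393, 146, 60.6 and 100.1 in older and 19.8, 28.7, 148 and 143 in younger cats. Its difference was 1.19 (SE 0.38), and cats 10 and 15 were the highest and cats 11 and 31 the lowest. CSRP3, a Z-disc protein of muscle stretch sensing, had 6609, 2934, 4907, 4406 and 7586 in older and 15110.1, 14633, 10593 and 4814 in younger cats, with a difference of -1.01 (SE 0.36). Cat 38 was the only younger cat among the older ones. ANKRD2, a stretch-responsive protein of muscle, had 433, 275, 1046, 666 and 262 in older and 3475, 3682, 1713 and 55.2 in younger cats, with a difference of -1.16 (SE 0.57), and cat 38 was the lowest of all 9 while the other younger cats were the 3 highest. Without cat 38 or without cat 37, the pair on flow cell C, the difference was -2.18 and passed (limma adjusted p = 0.00858 and 0.00977). Of 25 calcium handling and ion channel genes, 19 were higher, with a median of 0.19 that was -0.13 on flow cells B and C alone. The calcium-binding protein gene HRC, with the smallest p of that list, had 122, 118, 91.3, 103 and 130.2 in older and 14.5, 19.9, 133 and 118 in younger cats. Cats 11 and 31 were far below the rest, and the difference of 1.12 (SE 0.41) was 2.44 within flow cell A, -0.14 within B and 0.14 within C.

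Of 5 endothelial markers, the 4 that could be tested had a positive difference, with a median of 0.45, and 1 of them reached an unadjusted p under 0.05. The other, the tight junction gene CLDN5, had at most 22 reads and a mean value of 6.45 in older and 8.01 in younger cats. VWF, which ties platelets to damaged vessel walls and is made by endothelial cells, had 455, 923, 360.0, 311 and 687 in older cats 10, 15, 23, 30 and 37 and 228, 224, 165 and 288 in younger cats 11, 31, 36 and 38. The groups did not overlap, and the difference was 1.15 (SE 0.28). The junction protein genes CDH5 and PECAM1 had differences of 0.46 (SE 0.25) and 0.44 (SE 0.31), which missed an unadjusted p of 0.05, and EGFL7 had 0.34 (SE 0.45), with -0.97 within flow cell A, 1.87 within B and 0.93 within C. The endothelial list took 0.057% to 0.107% of the reads in older and 0.0232% to 0.0582% in younger cats.

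Smooth muscle and pericyte markers had no common sign, with 2 higher and 3 lower of the 5 tested. The other marker, MYH11, had at most 20 reads and a mean value of 9.99 in older and 3.60 in younger cats. The differences were 0.95 (SE 0.38) for RGS5 and -0.29 (SE 0.48) for PDGFRB, both pericyte genes, and 0.47 (SE 0.23), -0.64 (SE 0.44) and -0.69 (SE 0.82) for the contractile genes ACTA2, TAGLN and CNN1. TAGLN was 744 and 724 in younger cats 11 and 31 and at most 231 in any other cat, and the list took 0.107% and 0.105% of their reads and at most 0.0451% elsewhere. These 2 cats also had the highest CD163, TIMP1 and LGALS3, and the part of smooth muscle in those differences was not tested. Of 5 adipocyte markers, only PLIN4, a lipid droplet protein, could be tested, with a difference of 1.05 (SE 0.46). PLIN1 had at most 14 reads and a mean value of 4.08 in older and 5.36 in younger cats. ADIPOQ and LEP had at most 4 reads and CIDEC none. The mean of ADIPOQ was 0.902 in older and 0.199 in younger cats, and that of LEP was 0.441 and 0.682. The erythrocyte markers ALAS2, HBM and SLC4A1 took at most 0.00451% of the reads, in cat 15. Glial markers had at most 4 reads in any library.

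Genes tied to senescence, the lasting arrest of cell division, had a median of -0.016, near that of all genes. Of 19 members, 0 of the higher and 5 of the lower ones reached an unadjusted p under 0.05. The list includes LMNB1, which falls rather than rises in senescent cells, so its counts and median do not measure senescence. Besides PLAUR, the lower ones included CDKN1A, the cell cycle inhibitor p21, with 132, 54.5, 133, 110.3 and 150.2 in older and 304, 365, 257 and 86.8 in younger cats. Its difference was -0.98 (SE 0.38), and cat 38 was within the older range while the other younger cats were above it. LMNB1, a nuclear lamin that is lost in senescent cells, had 5.64, 0, 2.69, 10.9 and 1.43 in older and 46.8, 10.4, 16 and 5.15 in younger cats, values of 0 to 13 reads in the older cats, with a difference of -1.98 (SE 0.70). CDKN2A, the usual marker of senescence, had too few reads for the test.

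Of 31 longevity signalling genes (insulin, mTOR, sirtuin and FOXO), 21 were higher and 1 reached an unadjusted p under 0.05, with a median of 0.21 that was -0.23 within flow cell C and 0.067 without younger cat 11. That gene was FOXO1, a transcription factor held back by insulin, with 39.5, 27.2, 32.2, 21 and 34.3 in older and 11.6, 19.1, 22.3 and 22.8 in younger cats and a difference of 0.65 (SE 0.29). Antioxidant genes were evenly split, with 15 higher and 16 lower of 31. SOD1, the cytosolic superoxide dismutase, had 33.8, 31.3, 22.8, 29.5 and 34.3 in older and 13, 16, 16 and 13.2 in younger cats and did not overlap, with a difference of 0.98 (SE 0.28). SRXN1, which restores oxidised peroxiredoxins, had 12.4, 6.81, 9.4, 9.26 and 10 in older and 25.1, 57.4, 83.7 and 10.3 in younger cats, with a difference of -1.83 (SE 0.46), and cat 38 was within the older range.

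The remaining lists held no more than 4 genes at an unadjusted p under 0.05 in one direction. Of 47 autophagy and lysosome genes, 25 were higher and 22 lower, and MAP1LC3B, the membrane protein of autophagosomes, had a difference of 0.76 (SE 0.27). Of 14 complement and acute phase genes 9 were lower, with the C1q chains among them, while APOA1, the main protein of high-density lipoprotein, had 292, 44.9, 422, 47.1 and 411 in older and 18.8, 51.8, 25.8 and 252 in younger cats and a difference of 1.80 (SE 0.65). Of 20 hypoxia and glucocorticoid genes 14 were higher, of 13 core clock genes 10 were higher, of 21 immediate early genes 16 were lower, and of 14 lamina and LINC genes 10 were lower. Of 16 desmosome and intercalated disc genes 10 were lower, though DSP, which anchors desmosomes to the cytoskeleton, had a difference of 0.78 (SE 0.26). Of 13 DNA repair and cell cycle genes 7 were higher.

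The 10 genes in each direction with the smallest p were taken from those with 1 sign within all 3 flow cells, which held for 2179 genes (25.8%), so their shared sign is part of how they were chosen. Of the 20, the groups did not overlap for ZFYVE21, VWF, PDZRN3 and LIMCH1 on the higher side. On the lower side they did not overlap for GMDS, RANBP1 and AP1B1. Over all tested genes the groups did not overlap for 1.77%. The 20 were chosen by p from the same values, so their lack of overlap is not independent of that choice. Beside the genes described above, the higher ones were MLANA, ZFYVE21, PDZRN3, VPS13D, CPE and LIMCH1. ZFYVE21, a lipid-binding protein of endosomes, was the most even, with 116, 109, 77.9, 69 and 109 in older and 43, 41.5, 55.2 and 61.8 in younger cats and a difference of 0.86 (SE 0.21). LIMCH1, which activates non-muscle myosin, had 127, 116, 114, 113 and 102 in older and 20.3, 42.3, 63.2 and 84.6 in younger cats, so that the older cats lay close together and the younger ones were spread. Its difference was 1.23 (SE 0.31). PDZRN3, a ubiquitin ligase of muscle and nerve contacts, had 29.3, 25.9, 25.5, 27.8 and 40.1 in older and 12.1, 10.4, 10.7 and 22.8 in younger cats, with a difference of 1.12 (SE 0.28).

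MLANA, a pigment cell protein of melanosomes, had 14.7, 24.5, 48.4, 12.6 and 81.5 in older and 1.45, 0.798, 13.4 and 6.62 in younger cats. Cats 11 and 31 had 3 reads and 1 read, so its difference of 2.61 (SE 0.59) depends on counts near zero, and cat 36 was above older cat 30. DESeq2 called it (adjusted p = 0.0224). VPS13D, a lipid transfer protein needed by mitochondria, had 44, 55.8, 20.1, 27.8 and 48.6 in older and 15, 9.57, 9.79 and 25.7 in younger cats, with a difference of 1.32 (SE 0.33). CPE, an enzyme that trims peptide hormones, had 6.76, 30, 56.4, 39.6 and 68.7 in older and 16.4, 10.4, 3.56 and 32.4 in younger cats, with a difference of 1.61 (SE 0.41), and older cat 10 was below younger cats 11, 31 and 38.

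**Figure D4:**
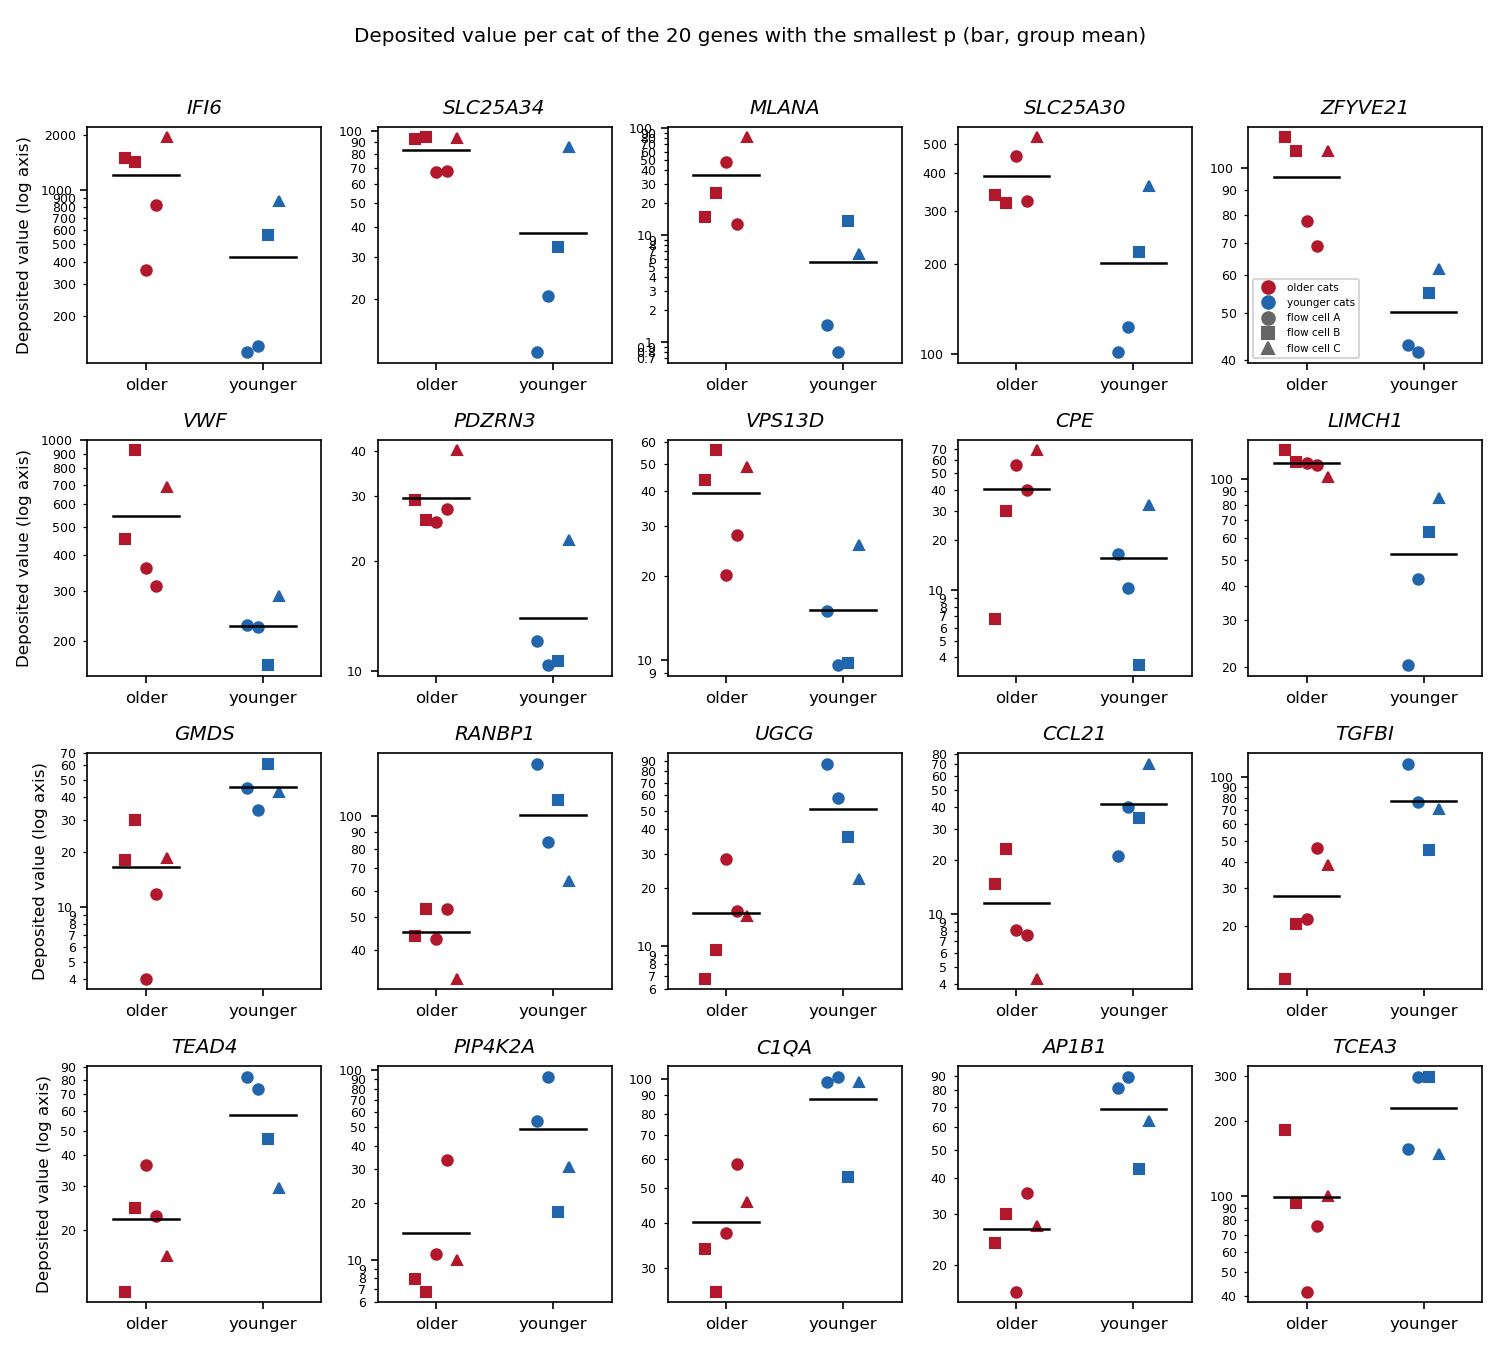
Deposited value (reads divided by the size factor of the library, log axis with its own range in each panel) of each cat for the 20 genes named by p, the higher ones in the upper 2 rows of panels and the lower ones in the lower 2 rows. Red is older and blue is younger, the marker gives the flow cell, and the bar is the group mean. Older and younger points do not overlap in 7 of the 20 panels, whose genes were chosen by p from these same values.

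On the lower side, beside CCL21, TGFBI, C1QA and RANBP1, stood GMDS, UGCG, TEAD4, PIP4K2A, AP1B1 and TCEA3. GMDS, the first enzyme of GDP-fucose synthesis, had 18, 30, 4.03, 11.8 and 18.6 in older and 44.9, 34.3, 61.4 and 42.7 in younger cats. Every older cat was below every younger cat, and the difference was -1.76 (SE 0.37). UGCG, which makes glucosylceramide, the base of many glycolipids, had 6.76, 9.53, 28.2, 15.2 and 14.3 in older and 87.8, 58.2, 36.5 and 22.1 in younger cats, with a difference of -1.57 (SE 0.34). Cat 23 was the only older cat above a younger one, cat 38. AP1B1, a subunit of a clathrin adaptor of the Golgi, had 23.7, 30, 16.1, 35.4 and 27.2 in older and 81.6, 89.3, 42.7 and 62.5 in younger cats, with a difference of -1.30 (SE 0.31).

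TEAD4, the DNA-binding partner of the growth regulators YAP and TAZ, had 11.3, 24.5, 36.3, 22.7 and 15.7 in older and 82.5, 73.4, 46.3 and 29.4 in younger cats, with a difference of -1.28 (SE 0.30). Cat 23 was again above cat 38. PIP4K2A, a kinase of membrane phosphoinositides, had 7.89, 6.81, 10.7, 33.7 and 10 in older and 54.1, 92.5, 17.8 and 30.9 in younger cats, with a difference of -1.56 (SE 0.37). Its values overlapped because older cat 30 was above younger cats 36 and 38. TCEA3, a muscle-rich transcription elongation factor, had 184, 93.9, 41.6, 75.8 and 100.1 in older and 153, 299, 299 and 148 in younger cats, with a difference of -1.37 (SE 0.33).

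**Figure D5:**
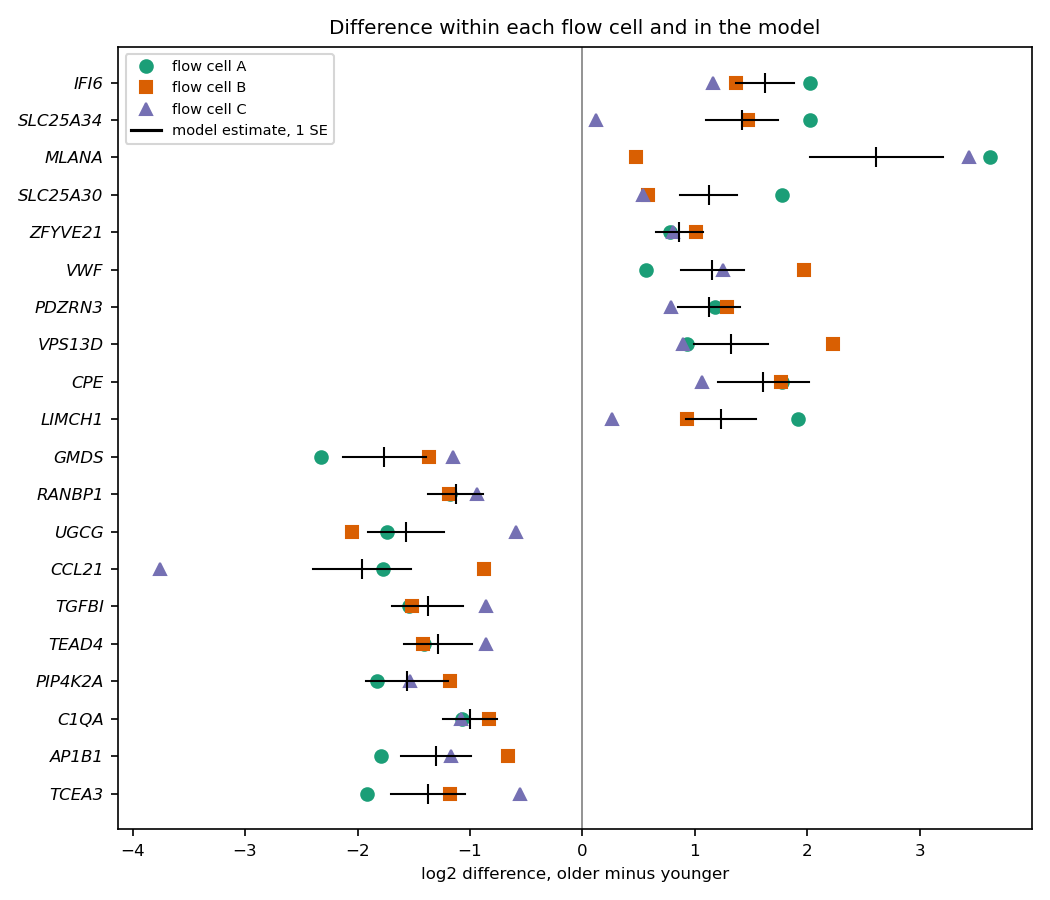
log2 difference (older minus younger, horizontal axis) of the 20 genes named by p within flow cell A, B and C (markers) and in the model with flow cell (tick, with a line of 1 SE to either side). All markers of a gene lie on 1 side of zero because the genes were chosen so. The largest and the smallest of the 3 are 0.23 apart for ZFYVE21 and 3.15 apart for MLANA.

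The comparison was repeated in subsets of the cats. Among the cats with congestive HF, older cats 15, 30 and 37 were compared with younger cats 11 and 31. There 111 of 8439 genes passed (limma adjusted p under 0.05, no flow cell in the model), 59 higher and 52 lower. Both younger cats of that comparison were on flow cell A, with 1 of its 3 older cats, so age and flow cell are largely mixed in it. They included IFI6, with 3.30, and TIMP1, with -2.30. On flow cells B and C alone, which leave out cats 11 and 31, 0 genes passed and 358 had an unadjusted p under 0.05. With all libraries thinned to 789257 reads, 0 passed and 764 had an unadjusted p under 0.05.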

How the data were processed

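Native RNA of the left ventricular free wall from 12 cats was read on nanopore flow cells, with 1 library per cat. Base calling by the authors used Guppy with a minimum read quality. Alignment to felCat9 was by minimap2, and featureCounts gave reads per gene. In the deposited table each signal value is a number of reads over the size factor of the library. All values were whole multiples of 1 read within 1e-06, so whole reads were recovered for the alternatives. Because the values are not undivided counts, limma (3.58.1, R 4.3.3) with an intensity trend on log2(value + 1) and flow cell as a covariate was the main test, two-sided, with Benjamini-Hochberg adjustment over the 8439 of 30785 listed genes that reached 10 reads in 3 or more libraries. Age groups came from the cohort list of the study, matched on the cat number in each library label, and the columns of 3 libraries were not compared (1 cat has no age there, and 2 numbers are not among the sequenced cats named by the study).

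The genes named are, in each direction, the 10 with the smallest p among those with 1 sign within all 3 flow cells and a mean value of 20 or more, then up to 4 members per list with the smallest p, members needed to say what a list is, and cell type markers. The rule takes genes with a symbol only. The members and lists were chosen with earlier results of these data known. edgeR 4.0.16, DESeq2 1.42.0, other scalings, pseudocounts, filters and covariates, a slope on age, the cats with congestive HF alone and each cat left out in turn were tried. Thinned libraries, edgeR without flow cell and flow cells B and C alone were added after seeing the data. The scripts were tested on simulated data. Each cat gave 1 library, so p-values measure the spread between cats, counting error included. Gene coordinates and sequences were not used here. The values of 2 genes are not reported here.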

Additional observations from a re-analysis of the deposited data

Results flagged for a closer look

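In 124 groups of 4 or 5 cats, made up of the values of the 20 genes named by p, the reads per library and the share of reads of each list, 9 held 1 cat far from the others. Chance flags about 1 in 20 such groups. Among gene values, PDZRN3 was 40.1 in older cat 37, the next older cat being at 29.3, and 22.8 in younger cat 38, the next being at 12.1. Both cats were on flow cell C. PIP4K2A was 33.7 in older cat 30, against 10.7 in the next. C1QA was 53.4 in younger cat 36, against 97.8 in the next.

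Among shares of reads, older cat 15 stood apart 3 times. Antigen presentation genes took 0.044% of its reads, against 0.0761% in the next older cat, lymphocyte markers took 0.00041%, against 0.00101%, and erythrocyte markers took 0.00451%, against 0.000586%. Calcium handling and ion channel genes took 1.24% of the reads of older cat 30, against 0.936% in the next. Mitochondrial ribosomal protein genes took 0.722% of the reads of younger cat 38, against 0.58% in the next. The causes were not tested.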

How the results depend on the processing

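With flow cell in the model 0 genes passed, and 797 had an unadjusted p under 0.05 (343 higher, 454 lower). 0 passed as well without flow cell (519 at an unadjusted p), with edgeR on whole reads (767, and 549 without flow cell), with TMM scaling (814), with pseudocounts of 0.5 (789) and 2 (796), with no filter on reads (1263 of 17507 genes), with 20 reads in 3 libraries (635 of 6286), with sex beside flow cell (825), with a slope on age (984, smallest adjusted p 0.0555), with thinned libraries (764) and on flow cells B and C alone (358). Thinning, edgeR without flow cell and the restriction to flow cells B and C were chosen after seeing the data. DESeq2 called 5 genes, among them IFI6, PLAUR, MLANA and LOC102902635, named here after their values were seen. The cats with congestive HF alone gave 111 calls and 1491 genes at an unadjusted p, and both younger cats among them were on flow cell A. Without library scaling there were 1363, since the median of all genes then moved to -0.72, and 3263 of 3280 genes at an unadjusted p were lower. Leaving out 1 cat gave 0 to 2 calls. The 2, ANKRD2 at -2.18 and SERPINB2 at -2.15, were called both without older cat 37 (adjusted p = 0.00977 and 0.036) and without younger cat 38 (adjusted p = 0.00858 and 0.0329), and either step leaves flow cell C with 1 age group. The number of genes at an unadjusted p ran from 534 to 1071 over the cats left out.

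Most of the 67 genes examined singly were chosen by their p in these same libraries, which the alternatives reuse. Their agreement in sign is therefore not independent of that choice. Under every alternative, 10 of 1606 values had the other sign. Without library scaling these were ACSL1 at -0.081, CPT2 at -0.18, NDUFA1 at -0.015, NDUFV3 at -0.064, FOXO1 at -0.044, CDH5 at -0.26 and PECAM1 at -0.28. RPS9 was at 0.13 among the cats with congestive HF, and on flow cells B and C alone TRIM63 was at -0.10 and HRC at -0.019. The list medians had the other sign in 80 of 856 alternatives apart from unscaled values. Interferon, macrophage, ER folding, nuclear transport and fatty acid genes had 0 of them. So did many other lists, among them antigen presentation, proteasome, chaperone, splicing and core clock genes. Medians within a single flow cell are not among these alternatives, and the fatty acid median was -0.12 within flow cell C. The library size difference was -0.87 and, within flow cells, -0.86.

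No paired analysis was possible because each cat gave 1 library and the age groups share no replicate number. The lower depth of the older cats gives wider counting errors in their genes of few reads. A p that misses the threshold with 9 cats does not show that a gene had equal levels.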

Other observations

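The 3 libraries labelled as cats 22, 29 and 35 entered no comparison. Cat 35 has no age in the cohort list, and 22 and 29 are not among the sequenced cats that the study names, so the source of those libraries is uncertain. IFI6 was 4947 in cat 22, 211 in cat 29 and 2477 in cat 35, so that 2 of the 3 were above each of the 9 cats compared. C1QA was 21.6, 54.3 and 296 in the same order, the last being above all 9 cats compared. VWF was 545, 137 and 596, and RANBP1 was 93.2, 61.0 and 63.8. GMDS was 43.2, 15.5 and 43.3, UGCG was 14.9, 12.2 and 11.8, and TGFBI was 24.3, 44.3 and 139.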
